A study of Mus musculus with 7 samples.

Results

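The 8 mature miRNAs studied here, members of the miR-10 and miR-196 families encoded inside Hox gene clusters, were followed across small-RNA libraries of wild-type and mutant Ago2 from mouse embryonic stem cells. They were chosen by name from the deposited table: mmu-miR-10a-5p, mmu-miR-10a-3p, mmu-miR-10b-5p, mmu-miR-10b-3p, mmu-miR-196a-5p, mmu-miR-196a-1-3p, mmu-miR-196a-2-3p and mmu-miR-196b-5p, written below without the species prefix. These are 8 of 950 mature miRNAs counted once each, on 9 of 1078 loci, since miR-196a-5p has 2 loci. Flag-tagged Ago2 was expressed in cells without Argonautes of their own, and the RNA held by it was recovered with an anti-Flag antibody. The series gives 1 library for each of 7 genotypes, all in that same cell background: WT, the point mutants Q548A and K566A, the double mutant R792A_C793A, the loop mutants PGKTP_AAAAA and GKT_GKGT, and a control named empty. The level of Flag-Ago2 in each culture and the number of clones per genotype were not given in the sources used here.

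Argonaute proteins keep 1 strand of a small-RNA duplex, the guide, and discard the other, the passenger. The MID domain holds the 5′ end of the guide and, through a loop, touches its first base; Q548A and K566A alter residues of that domain, PGKTP_AAAAA and GKT_GKGT alter the loop, and R792A_C793A alters a pair of neighbouring residues in the PIWI domain. The miR-10 and miR-196 genes lie within clusters of Hox genes, the homeobox genes that pattern the body axis. These miRNAs are known to be transcribed with Hox genes and to repress Hox messages. They are typical of posterior and differentiated tissues rather than of pluripotent cells, in which the miR-290 and miR-302 clusters prevail.

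The mature sequences are shown because the seed and the first base, the features read by targets and by the MID loop, divide the members. Seeds (bases 2 to 8) are in capitals, and the sequences are those of RefSeq (GRCm38.p6), which matched all 8 members by name.
miR-10a-5p: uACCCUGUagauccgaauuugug
miR-10b-5p: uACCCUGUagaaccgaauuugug
miR-196a-5p: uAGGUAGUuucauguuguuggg
miR-196b-5p: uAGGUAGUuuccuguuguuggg
miR-10a-3p: cAAAUUCGuaucuaggggaaua
miR-10b-3p: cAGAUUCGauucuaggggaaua
miR-196a-1-3p: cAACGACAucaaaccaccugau
miR-196a-2-3p: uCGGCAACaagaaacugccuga
The 4 members of the 5p arm begin with U and fall into 2 seed groups. Counted from the 5′ end, miR-10b-5p differs from miR-10a-5p by U12A alone, and miR-196b-5p differs from miR-196a-5p by A12C alone, both outside the seed. No other miRNA of the table with a RefSeq sequence shares either seed. Of the 3p arms, 3 begin with C and miR-196a-2-3p begins with U, and each has a seed of its own. GC content was 43.5% in both miR-10 5p arms, 40.9% in miR-196a-5p and 45.5% in miR-196a-1-3p.

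The hairpins of the 2 miR-196a genes are shown because they give the same 5p arm but different 3p arms (arms in capitals, RefSeq).
Mir196a-1: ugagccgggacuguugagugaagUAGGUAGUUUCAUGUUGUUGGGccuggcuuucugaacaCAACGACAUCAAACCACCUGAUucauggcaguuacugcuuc
Mir196a-2: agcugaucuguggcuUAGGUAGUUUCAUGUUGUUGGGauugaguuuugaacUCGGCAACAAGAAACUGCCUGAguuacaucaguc
In mm9, the build of the deposited positions, miR-196a-5p lies on chromosome 11 at 96126501 to 96126522 and on chromosome 15 at 102803796 to 102803817. Its partner arms are miR-196a-1-3p on chromosome 11 (96126539 to 96126560) and miR-196a-2-3p on chromosome 15 (102803832 to 102803853). The arms of miR-10a are on chromosome 11 (96178500 to 96178522 and 96178541 to 96178562), those of miR-10b on chromosome 2 (74564131 to 74564153 and 74564171 to 74564192), and miR-196b-5p is on chromosome 6 (52180128 to 52180149). By gene order in RefSeq GRCm38.p6, Mir10a lies within the span of Hoxb3 and before Hoxb4, and Mir10b within those of Hoxd3 and Hoxd4. Mir196a-1 has Hoxb13 and Hoxb9 as its nearest protein-coding neighbours, Mir196a-2 has Hoxc10 and Hoxc9, and Mir196b has Hoxa9 and Hoxa10. No member locus overlapped another locus of the table.

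Library totals ran from 14914048 counts (K566A) to 94842507 counts (WT) in the 6 Ago2 libraries, and the empty control held 33461. Levels are counts per 1000000 miRNA counts of a library (CPM). With 1 library per genotype, differences could not be checked against replicates and carry no p-value: each comparison is of 2 libraries. Intervals (95%) hold counting error alone, as reads without molecular identifiers are not independent molecules. A miRNA was called higher or lower where the exact conditional interval of its ratio lay wholly past 2-fold. The 9 stem-cell markers of the miR-290 and miR-302 clusters summed to between 60221 and 374148 CPM in the Ago2 libraries, with none at 0.

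Together the 8 members were a small fraction of the miRNA counts: 198 CPM in WT, 180 CPM in Q548A, 275 CPM in PGKTP_AAAAA, 420 CPM in R792A_C793A, 479 CPM in GKT_GKGT and 818 CPM in K566A. In WT they came in the order miR-196a-1-3p (91.4 CPM, place 135 of 950), miR-196a-5p (62.1, place 173), miR-10b-5p (29.2, place 229), miR-10a-5p (14.4, place 291) and miR-196b-5p (0.643, place 545). The 3 remaining arms were at 8 counts or fewer in WT. Only 4 members reached a mean of 10 CPM over the 6 Ago2 libraries, the level required of the 337 miRNAs that form the background, and each of these 4 was above 10 CPM in every Ago2 library. The empty control held 13 counts of all members together, 5 of them miR-196a-5p and 4 miR-196a-1-3p. Those 5 counts stand for 149 CPM (exact Poisson interval 48.5 to 349), a range that includes the WT level, and a count of 0 there allows up to 89.7 CPM.

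**Figure D1:**
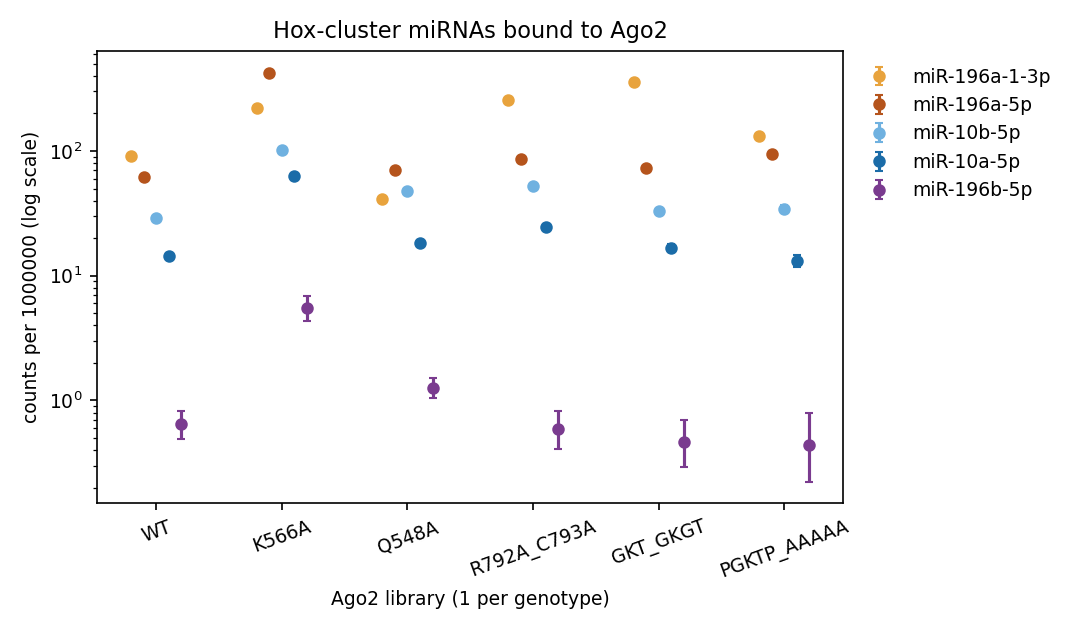
CPM (log scale) of the 5 most abundant members in each Ago2 library, with exact Poisson 95% intervals; colours stand for members. The 4 miRNAs of the 5p arm have their highest CPM in K566A (for miR-10b-5p not without miR-292-5p in the library size), whereas miR-196a-1-3p is highest in GKT_GKGT (356 CPM) and lowest in Q548A (41.6 CPM).

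The 5p arms of miR-10, guides that in other systems act on Hox and other developmental messages, had their highest CPM in K566A. Without miR-292-5p in the library size, miR-10b-5p in K566A was not above Q548A (log2 ratio -0.083). miR-10a-5p stood at 14.4 CPM in WT, 18.4 in Q548A, 63.0 in K566A, 24.6 in R792A_C793A, 16.7 in GKT_GKGT and 13.1 in PGKTP_AAAAA. In order of level, every library differed from the next beyond counting error except WT and PGKTP_AAAAA (ratio 1.10, 0.976 to 1.25). miR-10b-5p stood at 29.2 CPM in WT, 48.2 in Q548A, 102.6 in K566A, 52.4 in R792A_C793A, 32.9 in GKT_GKGT and 34.5 in PGKTP_AAAAA. Its neighbours in order were also apart, save PGKTP_AAAAA and GKT_GKGT (ratio 1.05, 0.963 to 1.14). The seed they share thus summed to 43.7 CPM in WT (42.4 to 45.0) and 165.5 in K566A (159 to 172).

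The 5p arm of miR-196a, a guide known to cleave Hoxb8 messages, had the largest K566A difference of the 4 tested members. It stood at 62.1 CPM in WT, 70.1 in Q548A, 424.9 in K566A, 85.8 in R792A_C793A, 72.4 in GKT_GKGT and 95.2 in PGKTP_AAAAA. K566A lay 4.46-fold (4.26 to 4.68) above the next library, PGKTP_AAAAA, while GKT_GKGT and Q548A did not differ beyond counting error (1.03, 0.992 to 1.08). miR-196b-5p, of the same seed, had 61 counts in WT, 119 in Q548A, 82 in K566A, 33 in R792A_C793A, 23 in GKT_GKGT and 11 in PGKTP_AAAAA. In CPM that was 5.498 in K566A, 1.26 in Q548A and between 0.441 and 0.643 in the other 4, which did not differ between neighbours.

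In K566A all 4 tested members were called higher than WT, where 47.5% of the 337 tested miRNAs were called higher and 19.6% lower. The log2 ratios were 2.78 for miR-196a-5p (2.72 to 2.83), 2.13 for miR-10a-5p (2.005 to 2.25), 1.81 for miR-10b-5p (1.72 to 1.90) and 1.28 for miR-196a-1-3p (1.22 to 1.33). Their median was 1.97, against 0.91 over all tested miRNAs. Relative to that median, miR-196a-5p lay 1.86 higher, miR-10a-5p 1.21, miR-10b-5p 0.90 and miR-196a-1-3p 0.36. The 2 members below the level required that were also called were miR-196b-5p, at 3.10 (2.60 to 3.60), and miR-10a-3p, at 2.84 (1.29 to 4.41) from 8 and 9 counts.

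The K566A calls depended on the library size used. The stem-cell arm miR-292-5p took 63.7% of WT counts and 21.7% of K566A counts. With miR-292-5p left out of the library size, 1 of the 4 stayed called, miR-196a-5p, and the log2 ratios of miR-10a-5p, miR-10b-5p and miR-196a-1-3p were 1.02, 0.70 and 0.17. This setting lowers every K566A log2 ratio by the same amount, so the order among the tested miRNAs is unchanged. The share of all tested miRNAs called under it is not given here, so the count of members called has no background. With median-of-ratios scaling 2 stayed called, miR-196a-5p and miR-10a-5p, and 111 of the tested miRNAs were higher and 106 lower, in place of 160 and 66.

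The tested members were set beside miRNAs of the same first base and like GC content (within 5 percentage points) in K566A. The 56 others beginning with U near the GC content of miR-10 had a median log2 ratio of 1.76 (quartiles 0.50 and 2.39), and 19 of them exceeded miR-10a-5p and 27 exceeded miR-10b-5p. For miR-196a-5p the median of 53 others was 1.81 (quartiles -0.0098 and 2.41), and it lay above the upper quartile, with 6 of them exceeding it. All tested U-first miRNAs had a median of 1.41, with 68 of 125 higher and 28 lower. For the C-first miR-196a-1-3p, at 1.28, the median of 18 others was 2.34 (quartiles 1.10 and 2.89), and 12 of them exceeded it. All tested C-first miRNAs had a median of 0.89, with 26 of 53 higher and 11 lower.

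The summed level of each list of markers of other cell types was also higher in K566A than in WT. Of all tested miRNAs 47.5% were called higher there, and their median log2 ratio was 0.91. Median-of-ratios scaling moves each K566A log2 ratio by -0.84, and leaving miR-292-5p out of the library size lowers it further. The 7 fibroblast markers, a cell type in which miR-196a and miR-10 are found, summed to between 631 and 1291 CPM in the other 5 Ago2 libraries and to 4680 CPM in K566A. Of these, 3 were called higher (miR-143-3p, miR-21-5p and miR-152-3p), 1 lower (miR-145-5p, from 13.6 to 0.134 CPM), and miR-214-3p was at 0 in K566A. The summed log2 ratio was 2.08 for fibroblast markers, 3.10 for 2 endothelial, 2.66 for 3 neuronal, 1.65 for 3 blood (miR-223-3p at 0 in every library), 2.16 for 2 muscle and 2.39 for 1 liver marker, and 1.60 for the 9 stem-cell markers. Within these lists 1 of 2 endothelial, 3 of 3 neuronal, 1 of 3 blood, 1 of 2 muscle and 1 of 1 liver markers were called higher. The muscle sum rests on 44 counts in WT and 31 in K566A, with miR-133a-3p at a log2 ratio of 0.025. The liver marker rests on 90 and 74 counts. The endothelial sum was carried by miR-126-3p (155 CPM in WT and 1458 in K566A), while miR-126-5p went from 15.8 to 7.91 CPM. Most of the fibroblast sum was miR-143-3p (995 of 1109 CPM in WT and 3968 of 4680 in K566A). Most of the neuronal sum was miR-128-3p (3882 of 3967 CPM in WT and 24578 of 25017 in K566A). The part of such cell types in the levels of miR-10 and miR-196 was not tested. Stem-cell markers called higher were 6 of 9. In these bulk libraries of Ago2-bound RNA, changes in cells of a type, in RNA per cell and in binding to Ago2 cannot be told apart.

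**Figure D2:**
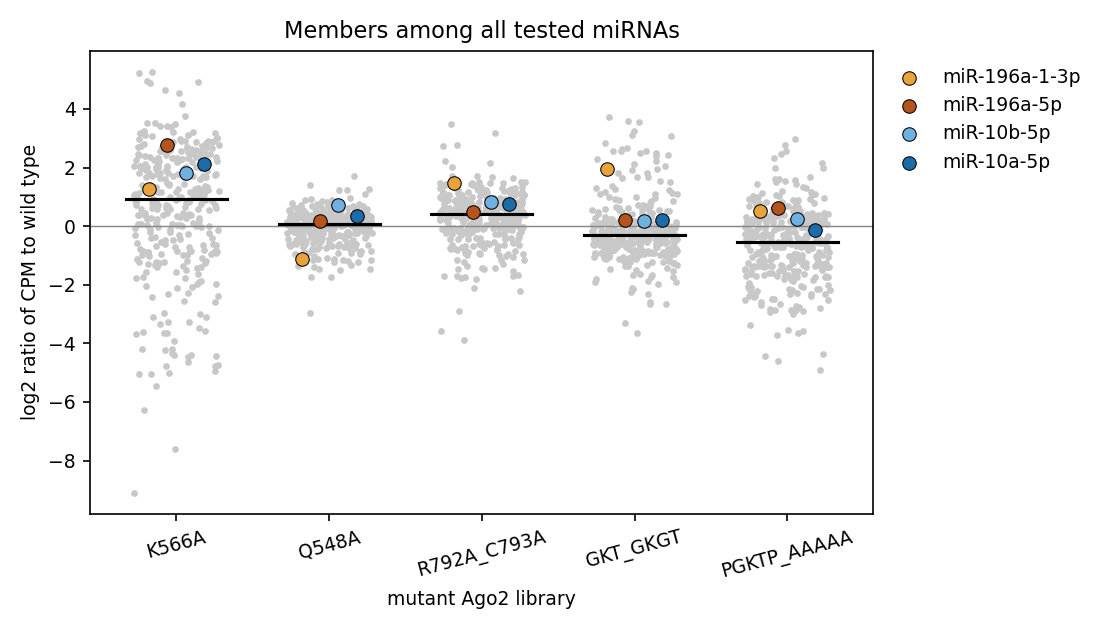
Log2 ratio of CPM to WT in each mutant library for 337 tested miRNAs (grey points, with black bars at their median) and for the 4 tested members (coloured). All 4 lie above the median in K566A, and miR-196a-1-3p lies lowest of the 4 in Q548A (-1.14) and highest in R792A_C793A (1.49) and GKT_GKGT (1.96).

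In the other 4 mutants none of the tested U-first members was called. In Q548A miR-10b-5p had the highest log2 ratio of the 4 tested members, 0.72 (0.65 to 0.79), above 94.4% of tested miRNAs, beside 0.35 for miR-10a-5p and 0.18 for miR-196a-5p. Among the 56 others of like base and GC content only 3 exceeded miR-10b-5p there. In Q548A 1.78% of tested miRNAs were called higher. In R792A_C793A miR-10a-5p, miR-10b-5p and miR-196a-5p were at 0.77, 0.84 and 0.47, where the median of all was 0.43; the first was above 72.4% of tested miRNAs and miR-10b-5p above 77.2%. In GKT_GKGT the 3 lay between 0.17 and 0.22, where the tested U-first miRNAs had a median of -0.40 and 3 of 125 were higher. Of 53 others matched on base and GC content 5 exceeded miR-196a-5p, and of 56 others 6 exceeded miR-10a-5p and 7 exceeded miR-10b-5p.

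In PGKTP_AAAAA, named for a loop replaced by alanines, where 33.5% of tested miRNAs were called lower and 7.12% higher (57 and 55 miRNAs with median-of-ratios scaling, in place of 113 and 24), no member was called. miR-196a-5p was at 0.62 (0.55 to 0.69), above 86.1% of tested miRNAs, miR-10b-5p at 0.24 and miR-10a-5p at -0.14 (-0.32 to 0.03). With median-of-ratios scaling, which moves each log2 ratio of this library by 0.62, miR-196a-5p (1.24) and miR-196a-1-3p (1.14) were called higher.

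The C-first arm of miR-196a-1, a strand usually listed as the passenger of that hairpin, was the most abundant member in WT. Its course differed from that of the other tested members. It stood at 91.4 CPM in WT, 41.6 in Q548A, 221 in K566A, 256 in R792A_C793A, 356 in GKT_GKGT and 131 in PGKTP_AAAAA. All neighbours in that order were apart beyond counting error, the closest being R792A_C793A and K566A (ratio 1.16, 1.11 to 1.20). Its place among 950 miRNAs went from 135 in WT to 82 in GKT_GKGT and 207 in Q548A.

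Against WT, miR-196a-1-3p was called higher in GKT_GKGT (log2 ratio 1.96, 1.92 to 1.998), where 11.0% of tested miRNAs were higher and 11.9% lower. There 25 of 53 tested C-first miRNAs were called higher and none lower, with a median of 0.86, and of 18 others of like GC content 6 exceeded it. It was called higher in R792A_C793A (1.49, 1.45 to 1.53), where 15.7% of tested miRNAs were and 6.82% were lower (53 higher and 23 lower, or 20 and 43 with median-of-ratios scaling). Only 1 of those 18 C-first miRNAs exceeded it there. It was called lower in Q548A (-1.14, -1.19 to -1.08), as 4.45% of tested miRNAs were, and 17 of the 18 lay above it. In PGKTP_AAAAA it was at 0.52 (0.46 to 0.58), close to the median of the 18 (0.41).

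Both arms are counted in the same library, so their ratio does not depend on library size. The 3p arm held 59.6% of the counts of miR-196a-1 and miR-196a-5p together in WT (exact binomial interval 58.8 to 60.4), 83.1% in GKT_GKGT (82.6 to 83.6), 74.9% in R792A_C793A (74.3 to 75.5), 57.9% in PGKTP_AAAAA (56.6 to 59.2), 37.2% in Q548A (36.3 to 38.1) and 34.3% in K566A (33.3 to 35.2). With all 5p counts given to this hairpin, the more abundant arm was 3p in WT, GKT_GKGT, R792A_C793A and PGKTP_AAAAA, and 5p in Q548A and K566A. The empty control had 4 counts of 3p among 9 (13.7 to 78.8%).

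Part of the 5p counts may come from the other gene, Mir196a-2, since both loci carry the same mature sequence and counts that differ by at most 1. The 3p arm of that gene had 5 counts in R792A_C793A and none elsewhere, which allows up to 0.051% of the shared 5p and 3p counts in WT. If the 5p counts were split evenly between the genes, the 3p share of miR-196a-1 would be 74.7% in WT, 90.8% in GKT_GKGT, 85.7% in R792A_C793A, 73.4% in PGKTP_AAAAA, 54.2% in Q548A and 51.0% in K566A, with the same changes in log odds. Under that split 3p was the more abundant arm in all 6 Ago2 libraries, so which arm leads in Q548A and K566A cannot be told from these counts.

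**Figure D3:**
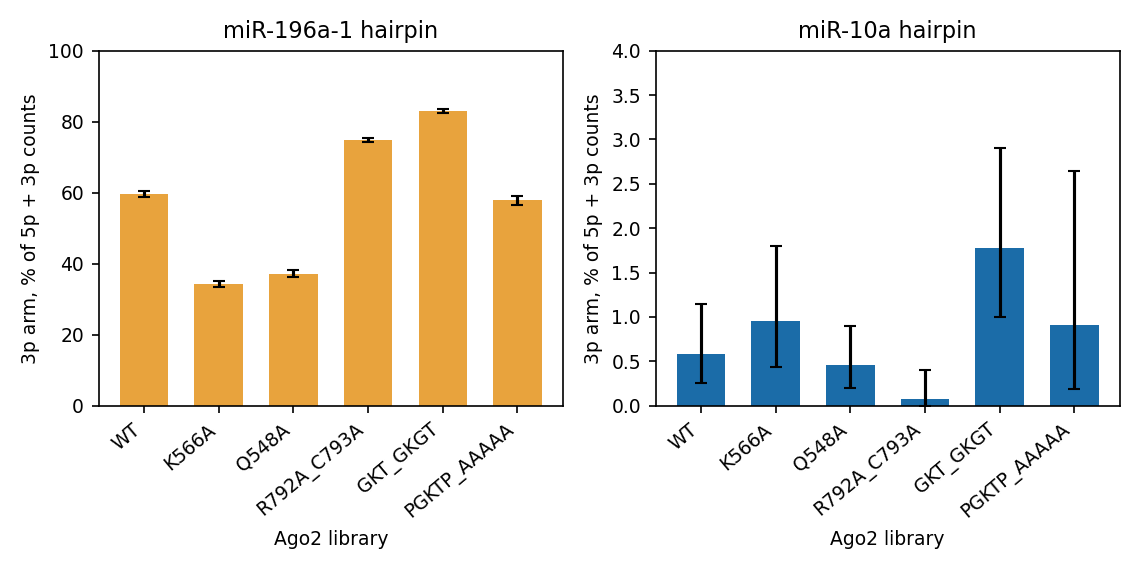
Share of the 3p arm in the summed 5p and 3p counts of the miR-196a-1 (left, axis to 100%) and miR-10a (right, axis to 4%) hairpins in each Ago2 library; error bars are exact binomial 95% intervals. The miR-196a-1 bars run from 34.3% in K566A to 83.1% in GKT_GKGT, and the miR-10a bars stay under 2%.

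The change in log2(3p/5p) of miR-196a-1 against WT was 1.74 in GKT_GKGT (1.67 to 1.81), called as in 18.2% of 402 hairpins tested, with 11.2% called lower. It was -1.31 in Q548A (-1.39 to -1.24), called as in 6.22% of hairpins (2.99% higher), and -1.499 in K566A (-1.58 to -1.42), called as in 18.7% (19.2% higher). In R792A_C793A it was 1.02 (0.953 to 1.09), an interval that reaches below 2-fold and so is not a call, where 8.71% of hairpins were called higher and 11.4% lower. In PGKTP_AAAAA it was -0.098 (-0.19 to -0.0082), not called, where 13.9% of hairpins were higher and 10.9% lower.

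Hairpins with 1 C-first and 1 U-first arm, each arm with at least 10 counts in both libraries, give the base-matched setting. In GKT_GKGT the C-first arm gained in 41 of 42 such hairpins, miR-196a-1 among them, by a median of 2.41, and 28 gained more than miR-196a-1. In Q548A the C-first arm lost in 37 of 41, by a median of -0.84, and 10 lost more. In K566A the median of 35 was 0.012, with 5 below miR-196a-1, and in R792A_C793A the median of 43 was 0, with 8 above it. The direction in GKT_GKGT and Q548A was that of most hairpins of this make. In K566A and R792A_C793A about as many of them gained as lost in the C-first arm (18 and 17, 21 and 21). In PGKTP_AAAAA the C-first arm gained in 23 of 33, by a median of 0.66, while miR-196a-1 stood at -0.098, with 9 below it.

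The C-first arms of miR-10 were rare in every library. miR-10a-3p had 8 counts in WT, 8 in Q548A, 9 in K566A, 1 in R792A_C793A, 15 in GKT_GKGT and 3 in PGKTP_AAAAA, from 0.073% of its hairpin (0.0018 to 0.40) in R792A_C793A to 1.77% (0.996 to 2.91) in GKT_GKGT, with 0.58% in WT (0.25 to 1.14). Its change in log2(3p/5p) was 1.59 in GKT_GKGT (0.29 to 3.08), above 0 but not wholly past 2-fold, and in R792A_C793A it was -2.51 (-8.48 to -0.11). miR-10b-3p had between 0 and 4 counts in all libraries; its 0 counts in GKT_GKGT allow up to 0.18% of the hairpin, above the 0.072% measured in WT, so no difference was detectable at this depth. None of the changes in the miR-10 hairpins was called.

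The paralogs that differ by 1 base are compared within each library. miR-10a-5p made up 33.03% of the miR-10 5p counts in WT (31.6 to 34.5), 27.6% in Q548A (26.5 to 28.7), 38.0% in K566A (36.1 to 39.98), 31.9% in R792A_C793A (30.5 to 33.3), 33.7% in GKT_GKGT (31.8 to 35.6) and 27.5% in PGKTP_AAAAA (24.96 to 30.1). Against WT the log2 ratio of miR-10a-5p to miR-10b-5p was 0.32 higher in K566A (0.17 to 0.47), and lower in Q548A by -0.37 (-0.49 to -0.25) and in PGKTP_AAAAA by -0.38 (-0.59 to -0.17). In R792A_C793A and GKT_GKGT the interval of that change included 0. None of these miR-10 changes reached 2-fold. miR-196b-5p made up 1.03% of the miR-196 5p counts in WT (0.79 to 1.32), 1.76% in Q548A (1.46 to 2.10) and 0.46% in PGKTP_AAAAA (0.23 to 0.82), on 11 to 119 counts. Against WT the log2 ratio of miR-196b-5p to miR-196a-5p was 0.78 higher in Q548A (0.33 to 1.26) and lower in PGKTP_AAAAA by -1.11 (-2.24 to -0.22), intervals apart from 0 but not wholly past 2-fold. In the other 3 mutants the interval of that change included 0.

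Mutants set directly against each other, without the WT library, are given next. GKT_GKGT exceeded PGKTP_AAAAA in miR-196a-1-3p (log2 ratio 1.44, 1.39 to 1.496), called as in 25.5% of tested miRNAs, with 5.93% called lower (86 higher and 20 lower, or 55 and 50 with median-of-ratios scaling), and the change in log2(3p/5p) was 1.84 (1.74 to 1.93), called as in 13.9% of hairpins, with 8.46% called lower. With median-of-ratios scaling the level difference was 0.9986 and no longer called. Of the 5p arms, miR-196a-5p was at -0.39 (-0.47 to -0.32), miR-10a-5p at 0.36 and miR-10b-5p at -0.067 (-0.19 to 0.05). K566A exceeded Q548A in all 4 tested members, called as in 47.2% of tested miRNAs, with 19.6% lower (159 higher and 66 lower, or 110 and 101 with median-of-ratios scaling). These log2 ratios were 2.60 for miR-196a-5p, 2.41 for miR-196a-1-3p, 1.78 for miR-10a-5p and 1.09 for miR-10b-5p. The last turned to -0.083 with miR-292-5p left out of the library size. Both arms of miR-196a-1 being higher, the change in log2(3p/5p) was -0.19 (-0.27 to -0.10) and not called, where 20.4% of hairpins were called higher and 16.7% lower.

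Relatives of the members were taken from a fixed list. miR-99a-5p, miR-99b-5p and miR-100-5p share 1 seed, whose first bases are those of the miR-10 seed, but they begin with A or C.
miR-99a-5p: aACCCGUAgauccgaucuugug
miR-99b-5p: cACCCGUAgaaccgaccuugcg
miR-100-5p: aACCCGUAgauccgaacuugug
In K566A miR-99a-5p was called higher than WT (log2 ratio 2.74, 2.49 to 3.0008) and miR-100-5p was at 0.997 (0.75 to 1.24). miR-99b-5p, with a GC content of 63.6%, was called lower there (-1.98, -1.99 to -1.96). The 15 other C-first miRNAs of like GC content had a median of 0.57 in K566A, with 13 above miR-99b-5p. In WT miR-99b-5p was at 14866 CPM, far above the other two at 2.59 and 5.98 CPM. None of the 3 was called in another mutant.

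miR-615, the further miRNA of the Hox clusters, lies within Hoxc5 and went the other way from miR-10 and miR-196 in K566A. It is shown because it begins with U as they do.
miR-615-3p: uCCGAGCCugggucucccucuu
miR-615-3p stood at 112 CPM in WT, 80.1 in Q548A, 5.297 in K566A, 71.1 in R792A_C793A, 81.0 in GKT_GKGT and 37.2 in PGKTP_AAAAA. It was called lower in K566A (-4.40, -4.74 to -4.08) and in PGKTP_AAAAA (-1.59, -1.69 to -1.49). Its GC content was 63.6%, and the 19 other U-first miRNAs of like GC content had a median of -1.87 in K566A, with 16 above it. Its 5p arm had 69 counts in WT and 3 in K566A, and miR-196b-3p was at 0 in every library.

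**Figure D4:**
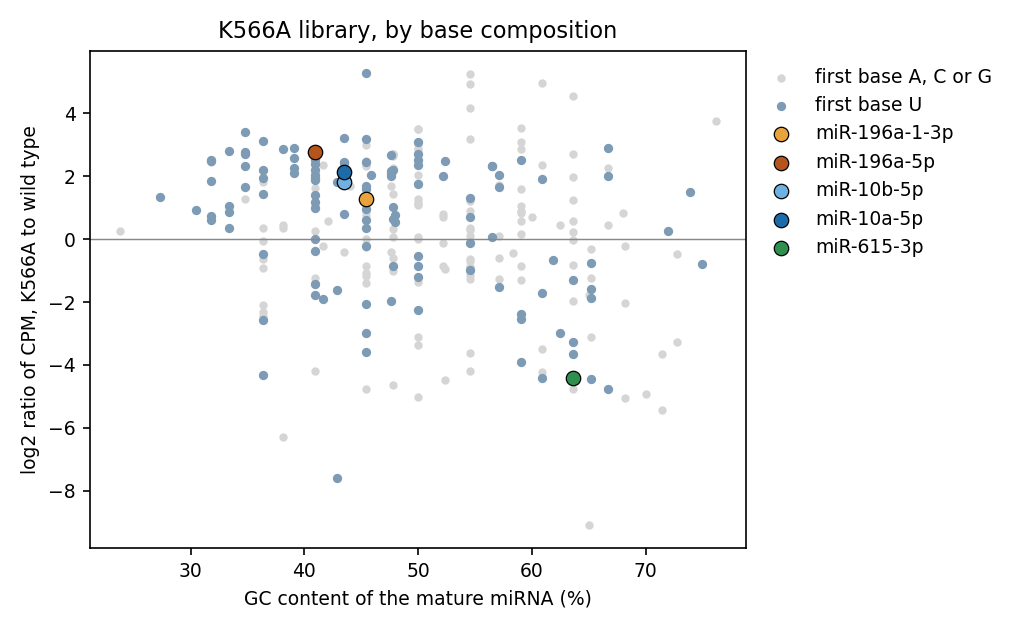
Log2 ratio of CPM in K566A to WT against the GC content of the mature miRNA, for the 277 tested miRNAs with a RefSeq sequence, those beginning with U in blue; members and miR-615-3p are enlarged. The members lie between 40.9% and 45.5% GC at 1.28 to 2.78, and miR-615-3p lies at 63.6% GC and -4.40.

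By the root mean square difference of log2 ratios to WT over the 5 mutants, the tested miRNAs most like miR-10a-5p were miR-192-5p (0.19), miR-467c-5p (0.21) and miR-470-5p (0.21), with miR-10b-5p in place 8 (0.28). Those most like miR-10b-5p were miR-532-5p (0.27), miR-10a-5p (0.28) and miR-17-5p (0.30). Those most like miR-196a-5p were miR-34c-5p (0.24), miR-881-3p (0.25) and miR-335-3p (0.28). miR-196a-1-3p had no such close match: the nearest were miR-465a-3p (0.57), miR-140-5p (0.63) and let-7d-3p (0.63), and its own partner arm miR-196a-5p was in place 53 (1.27). Each value rests on 5 differences that share the WT library.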

How the data were processed

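Raw counts per mature miRNA locus were deposited by the authors, not normalized, in 1 table with 1 column per library, per the file headers. The submitters' processing notes name CASAVA 1.8.2, TopHat2 2.0.9 and mm9; the program that counted reads, its miRNA annotation, its use of strand and what it did with reads of more than 1 match were not given in the sources used here. Of 64 names with several loci and counts, 55 had counts equal within 1% or 3 counts, so each name was counted once, by its highest locus, and 9 names whose counts (at least 200 in sum) equalled those of another name were joined to it.

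From these counts CPM, ratios, arm shares and exact intervals were computed (Python 3.11.15, scipy 1.17.1). Totals were 94842507 (WT), 94700428 (Q548A), 14914048 (K566A), 56066232 (R792A_C793A), 49657466 (GKT_GKGT), 24921544 (PGKTP_AAAAA) and 33461 (empty). A count of 0 allows 3 counts. Ratio intervals are exact conditional 95% intervals; odds ratios use Woolf's interval where all 4 counts reach 500; log2(3p/5p) has a pseudocount of 0.5. Hairpins are 5p and 3p loci of a shared name at most 150 nt apart, tested with at least 100 counts. The 5-point GC window and the minimum of 10 counts per arm were chosen after the data were seen. The call rule was tested on simulated data. Sequences were matched by name for 277 of 337 tested miRNAs. Members, lists and tests were chosen with earlier results of these data known. Named were all members, all listed relatives in the table and, per tested member, the 3 tested miRNAs with the most similar log2 ratios. Alternatives were library size, loci summed, the fold, the filter, the pseudocount and the split of miR-196a-5p.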

Additional observations from a re-analysis of the deposited data

How the results depend on the processing

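Several calls on levels changed with the library size. The number of tested members higher than WT in K566A went from 4 to 2 with median-of-ratios scaling and to 1 without miR-292-5p in the library size. Against Q548A it went from 4 to 2 under both. The share of all tested miRNAs called without miR-292-5p in the library size is not given here. With median-of-ratios scaling 2 members in place of 0 were higher in PGKTP_AAAAA, and 0 in place of 1 in GKT_GKGT against PGKTP_AAAAA. With a fold of 1.5, 1 in place of 0 was higher in Q548A and 3 in place of 1 in R792A_C793A. miR-10b-5p in K566A against Q548A turned from 1.09 to -0.083 without miR-292-5p, and was at 1.03, no longer called, with loci summed. Of the 337 tested miRNAs, median-of-ratios scaling gave 106 lower in K566A in place of 66 (101 in place of 66 against Q548A), 20 higher and 43 lower in R792A_C793A in place of 53 and 23, 55 and 57 in PGKTP_AAAAA in place of 24 and 113, and 55 and 50 between the loop mutants in place of 86 and 20. A fold of 1.5 gave 25 and 44 in Q548A in place of 6 and 15, 113 and 49 in R792A_C793A in place of 53 and 23, 92 lower in GKT_GKGT in place of 40, 45 higher in PGKTP_AAAAA in place of 24, and 49 lower between the loop mutants in place of 20. Without the filter 838 miRNAs were tested, a larger set than the 337, so shares called higher and lower are given. They were 32.5% and 13.7% in K566A, 0.835% and 3.70% in Q548A, and 10.3% and 4.65% in R792A_C793A. In GKT_GKGT they were 8.95% and 8.59%, and in PGKTP_AAAAA 4.53% and 23.6%. Between the loop mutants they were 18.7% and 3.34%, and in K566A against Q548A 32.6% and 13.1%. The 7 arm changes of miR-196a-1 stayed within their intervals with a pseudocount of 5 and with the 5p counts split evenly, settings that could hardly move them. An even split in both libraries cancels in the ratio, and the pseudocount is small beside arm counts of 2373 or more. A share of Mir196a-2 that differs between libraries was not tested. Members called higher in K566A without the filter were 6, where 32.5% of the 838 miRNAs were. They include miR-10a-3p, which rests on 8 counts in WT and 9 in K566A. No paired analysis was possible because each genotype has 1 library. Depth limits miR-10a-3p, miR-10b-3p, miR-196a-2-3p and miR-196b-5p, and the empty control with 13 member counts.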

Other observations

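Among 173 other hairpins with at least 10 counts in each arm in all 6 Ago2 libraries, the 3 whose change in log2(3p/5p) over the 5 mutants was nearest to that of miR-196a-1 were miR-3066 (root mean square difference 0.59), let-7f-1 (0.64) and miR-743a (0.89). The first and let-7f-1 also have a U-first 5p and a C-first 3p arm. For let-7f-1 the change was -1.44 in Q548A, -0.72 in K566A, 1.01 in R792A_C793A, 0.98 in GKT_GKGT and -1.02 in PGKTP_AAAAA. For miR-3066 it was -0.497, -1.31, 0.91, 0.75 and 0.092 in the same order. These hairpins were found by a search over the same data, and the values share the WT library.

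Across the 277 tested miRNAs with a sequence, Spearman's correlation of GC content with the log2 ratio to WT was -0.46 in Q548A, -0.26 in K566A, -0.29 in R792A_C793A, 0.18 in GKT_GKGT and -0.015 in PGKTP_AAAAA. These are correlations across miRNAs of 2 libraries, which are not independent replicates and share the WT library.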
